A study of Mus musculus with 27 samples.

Results

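The P1 population was compared between skeletal muscle and bone marrow of the mouse hindlimb. P1 cells were sorted as Prx1+ CD45- CD105- CD200+, that is, cells that carried the Prx1 reporter and surface CD200 and lacked the blood cell antigen CD45 and the endoglin antigen CD105. The comparison used 3 muscle P1 and 3 bone marrow P1 libraries, 6 of the 27 libraries of the series, and was made over every gene that passed a filter on low values. The mice were Prx1-CreER/Ai14/Rag1 animals of both sexes aged 8 to 12 weeks, and the cells were taken 3 days after tamoxifen. In these mice CreER is driven by the Prx1 promoter and switches on tdTomato permanently, so the reporter marks cells that used the promoter at the time of tamoxifen and their progeny. All animals of both groups lacked Rag1 and therefore mature B and T cells. Muscle was cleared of fat and tendon, minced and digested with collagenase for 1 hour, whereas bone marrow was flushed out of the bones and not digested. Tissue and digestion cannot be told apart in this comparison. Libraries were made with the SMART-Seq v4 and Nextera XT kits. The series design says that tissues came from the same animals but not which animal gave which library, so the p-values treat the libraries as independent and measure the spread between these samples.

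Prx1 (gene symbol Prrx1) is a homeobox factor of the limb bud mesenchyme, and adult cells of this lineage include osteoblasts and stromal cells of bone, as well as the connective tissue cells of muscle. Osteoblasts secrete a matrix of type I collagen with osteocalcin, bone sialoprotein and osteopontin, which alkaline phosphatase and PHOSPHO1 help to mineralize, under the transcription factors RUNX2 and osterix. Marrow stromal cells that carry the leptin receptor supply CXCL12 and stem cell factor to blood stem cells. In muscle, fibro-adipogenic progenitors are interstitial fibroblasts that carry PDGFRα and Sca-1 (the product of Ly6a) and lie between fibres and around vessels, and fibroblasts of tendon make fibromodulin and cartilage intermediate layer protein.

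The values are normalized counts as deposited. Their sum per library ran from 11221000 to 12301000 in muscle and from 16782600 to 22076900 in bone marrow, and 16806 to 17869 genes were above 0 in a muscle library against 15331 to 15937 in a bone marrow library. Pearson's r of log2 values across the 13883 genes tested was 0.882 to 0.897 within muscle, 0.90 to 0.91 within bone marrow and 0.571 to 0.63 between the tissues, given as a description over genes, which are not independent. Type I collagen took 26.5% to 39.3% of a bone marrow library and 1.53% to 2.14% of a muscle library. Globins took 0.527% to 2.89% of a bone marrow library, with the highest share in replicate 3, and 0.025% to 0.101% of a muscle library. Mitochondrial transcripts took 4.68% to 5.41% of a muscle library and 1.63% to 2.96% of a bone marrow library.

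The genes of the sort were checked first. Prrx1 was 1266, 1202 and 1313 in muscle and 2413, 1674 and 1819 in bone marrow (log2 fold change -0.63 ± 0.20 (SE), adjusted p = 0.0416), below the size threshold. The groups did not overlap, but the direction turned with totals made equal between libraries (log2 fold change 0.051). The entry named TRANSGENES, whose sequence the table does not describe, was 16555, 22120.2 and 19372 in muscle and 24200.2, 47049.8 and 32777 in bone marrow (log2 fold change -0.80, adjusted p = 0.0478) and was present in every library. Cd200, the positive marker of the gate, was 1025, 3274 and 2560.4 in muscle and 6346, 7515 and 6315 in bone marrow (log2 fold change -1.71 ± 0.39 (SE), adjusted p = 0.00979). Its transcript was lower in every muscle library than in every bone marrow library, but the call was lost when all 9 groups of the series set the spread (adjusted p = 0.369), with equal totals (log2 fold change -1.03) and without muscle replicate 1 (log2 fold change -1.21). Eng, which encodes the excluded CD105, was 178, 382 and 367 in muscle and 111, 129 and 5.18 in bone marrow and was not called (log2 fold change 2.71, adjusted p = 0.0893). It was called with equal totals (log2 fold change 3.38, adjusted p = 0.0314). Ptprc, which encodes the excluded CD45, was 14.7, 14.8 and 5.69 in muscle and 61.8, 252 and 204 in bone marrow (log2 fold change -3.65, adjusted p = 0.00591), so the excluded blood cell marker was detected in all 6 libraries and was higher in bone marrow.

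Differentially expressed genes (DEGs) were those with an adjusted p under 0.05 whose log2 fold change, muscle minus bone marrow, exceeded 1.5 in size. Of 13883 genes tested, 3224 were DEGs (23.2%), of which 1869 were higher (13.5%) and 1355 lower (9.76%) in muscle. Over the genes tested the median log2 fold change was -0.00593, and 3203 of the 3224 DEGs had no overlap between the 3 and the 3 libraries. A change of more than 5 on the log2 scale was seen for 576 higher and 207 lower DEGs, and 209 higher DEGs were listed at 0 in all bone marrow libraries while 41 lower DEGs were listed at 0 in all muscle libraries. Higher genes made up 58% of the DEGs. With library totals made equal, which divides the bone marrow values that include the large collagen share by more, the median of all genes moved to 0.665 and the split became 2947 higher against 792 lower, or 78.8% higher. With all 9 groups of the series in the fit, 1546 genes were called, 986 higher and 560 lower, of which 1532 were also called in the 6-library fit.

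With a pseudocount of 1, the 10 largest changes upward, among DEGs without overlap and with a mean of at least 500, were the smooth muscle genes Myh11 and Acta2, the skeletal muscle genes Acta1 and Atp2a1, the chemokine genes Cxcl1, Ccl11 and Ccl2, the caveolin gene Cav1, the endothelial receptor gene Tek and the interferon-inducible gene Ifi205. The 10 largest downward were the neutrophil granule and neutrophil marker genes Ngp, Ltf, Camp, Chil3, S100a8, S100a9 and Cd177, the platelet chemokine gene Ppbp, the adipokine gene Adipoq and the kininogen gene Kng1. Cav1 was 5496, 5912 and 6433 in muscle and 1.42, 0 and 1.43 in bone marrow and Ifi205 was 4150.4, 4859 and 2751 in muscle and 0, 2.98 and 0 in bone marrow. Both genes were near 0 in every bone marrow library. Kng1 was 29.3, 0 and 18.7 in muscle and 2318, 1185 and 3014 in bone marrow (log2 fold change -7.91, adjusted p = 0.00118), with the caution that its close copy Kng2 can share reads with it. These ranks depend on the pseudocount, because one group was at or near 0: with a pseudocount of 0.1, 3 of the 10 upward and 9 of the 10 downward genes remained among the 10 largest, and with a pseudocount of 5, 7 and 8 did. Values for the remaining genes are given with their lists where the list describes them.

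**Figure D1:**
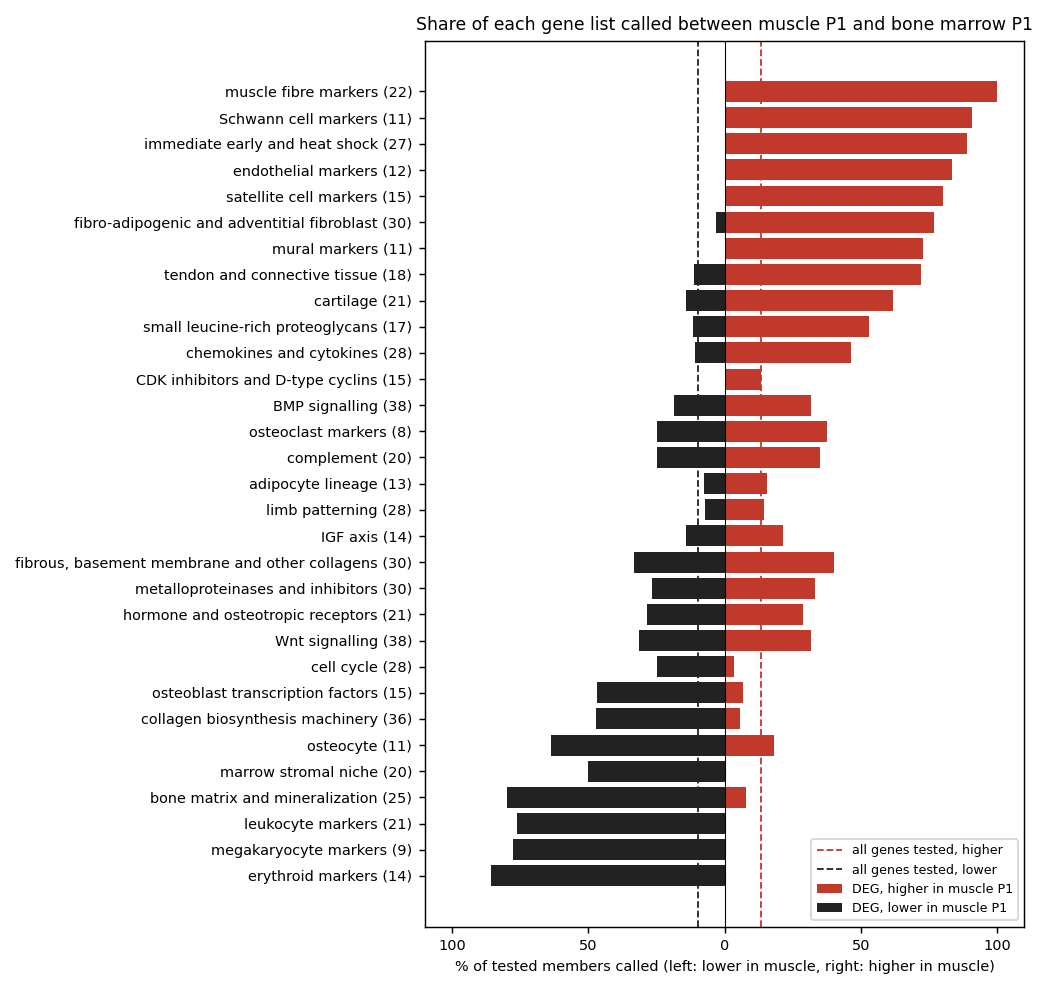
Share of the tested members of 31 hand-written gene lists that were DEGs, higher in muscle P1 to the right and lower to the left, in percent, with the number of tested members after each name. Dashed lines mark the share among all 13883 genes, 13.5% higher and 9.76% lower. Bone matrix, osteocyte, niche and blood lists extend to the left, and fibroblast, tendon, muscle, vessel and early response lists extend to the right.

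Bone matrix genes were lower in muscle P1. Of 25 genes for bone matrix and mineralization, 20 fell (80.0%), 2 rose (8.0%) and 3 did not pass, against a background of 9.76% lower and 13.5% higher. The median log2 fold change was -4.11, and with all 9 groups 15 fell and 1 rose. Col1a1, which encodes the α1 chain of type I collagen and lies at chr11:94936224-94953042, plus strand (GRCm38), was 72212, 117997 and 105977 in muscle and 2570530.0, 4087530.0 and 2095400.0 in bone marrow (log2 fold change -4.86 ± 0.38 (SE), adjusted p = 5.12e-05). Col1a2, the partner chain, was 107290.0, 140073 and 133754 in muscle and 2815260.0, 4585210.0 and 2357620.0 in bone marrow (log2 fold change -4.63, adjusted p = 5.75e-05), and under quantile normalization it was not called. Ibsp, bone sialoprotein, was 2784, 6951 and 4967 in muscle and 151959, 188589 and 146098 in bone marrow (log2 fold change -5.14 ± 0.32 (SE), adjusted p = 1.73e-05). Each of the 3 bone marrow libraries was far above each of the 3 muscle libraries for these genes, although the transcripts were present in every muscle library. Bglap, which encodes osteocalcin (chr3:88383501-88384464, minus strand), was 4030.4, 13336 and 7243 in muscle and 742558, 521555 and 498392 in bone marrow (log2 fold change -6.31 ± 0.41 (SE), adjusted p = 2.04e-05), and its near-identical neighbour Bglap2 (chr3:88377736-88378699, minus strand) was 3001, 7487 and 4229.6 in muscle and 407202, 280982 and 254932 in bone marrow. The division of reads between these copies is uncertain, and the direction was the same for both. Spp1, osteopontin (chr5:104435118-104441050, plus strand), was 4038, 1473 and 3518 in muscle and 70830.5, 113804 and 93436 in bone marrow (log2 fold change -5.04 ± 0.38 (SE), adjusted p = 3.85e-05). Alpl, the tissue-nonspecific alkaline phosphatase, was 1224, 1729 and 1462 in muscle and 23891, 28847 and 20274 in bone marrow (log2 fold change -4.05 ± 0.20 (SE), adjusted p = 6.43e-06). Phospho1, the phosphatase of matrix vesicles, was 0.284, 3.35 and 2.95 in muscle and 617, 677 and 606 in bone marrow (log2 fold change -7.82, adjusted p = 6.79e-05) and so was close to 0 in muscle. Sparc, osteonectin, was 54715, 71197 and 61939.6 in muscle and 587491, 593784 and 516889 in bone marrow (log2 fold change -3.18, adjusted p = 4.81e-05). The members that rose were Slc20a1, a phosphate transporter, at 666, 517 and 313 in muscle and 71.4, 126 and 76.1 in bone marrow, and Tnn, tenascin W, at 1400.4, 1023 and 1408 in muscle and 501, 673 and 177 in bone marrow (log2 fold change 1.69, adjusted p = 0.0219). The Tnn call was lost with all 9 groups (adjusted p = 0.793), and also when any of the 3 muscle libraries or bone marrow replicate 3 was left out. In these bulk samples, fewer cells of a type and less RNA per cell cannot be told apart.

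The promoters of Bglap and Spp1 are shown as examples. Both genes fell by more than 5 on the log2 scale and hold the RUNX core motif, the binding motif of the RUNX family. Mepe also did both (log2 fold change -6.075) and is not printed. The sequences are the 250 bases before the gene start in RefSeq (GRCm38.p6), with the motif TGTGGT in capitals, here on the opposite strand as ACCACA. Bglap has 1 promoter entry (chr3:88384467-88384716, minus strand) with 1 match, and Spp1 has 2 entries, of which the one with the match is printed (chr5:104434861-104435110, plus strand).
Bglap: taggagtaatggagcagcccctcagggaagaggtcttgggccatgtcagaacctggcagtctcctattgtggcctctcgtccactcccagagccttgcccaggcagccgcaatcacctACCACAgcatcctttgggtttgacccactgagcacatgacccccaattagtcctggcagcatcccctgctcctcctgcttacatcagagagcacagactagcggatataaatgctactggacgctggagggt
Spp1: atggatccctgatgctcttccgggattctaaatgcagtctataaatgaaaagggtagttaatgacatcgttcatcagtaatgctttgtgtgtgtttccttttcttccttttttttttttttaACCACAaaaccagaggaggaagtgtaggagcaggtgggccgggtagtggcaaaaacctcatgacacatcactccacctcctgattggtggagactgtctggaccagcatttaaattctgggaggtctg
The match starts at base 119 of the Bglap sequence and at base 123 of the Spp1 sequence, and both promoters hold no second match. Over windows of 300 bases, from 250 before to 50 after the start and on both strands, the motif occurred in 7 of the 16 bone matrix genes that had an entry (43.8%) and in 5113 of 27025 genes overall (18.9%). Among osteoblast transcription factors it occurred in 1 of 7 (14.3%). The 7 bone matrix genes with the motif were Sparc, Bglap, Spp1, Enpp1, Slc20a1, Dmp1 and Mepe. Not all of them fell: Slc20a1 rose and Enpp1 was not called. These shares describe letters in the windows and are not evidence of binding.

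**Figure D2:**
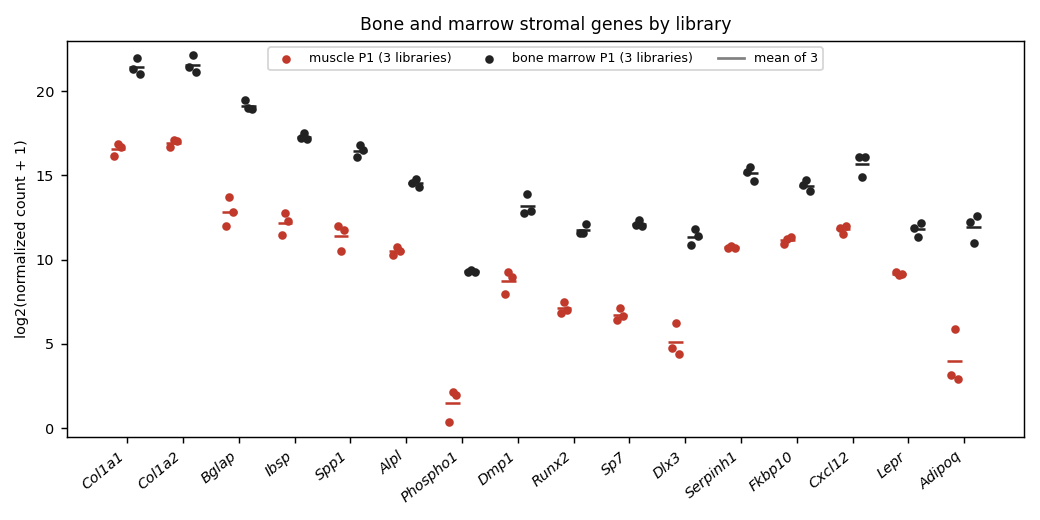
Normalized counts of 16 bone and marrow stromal genes on a log2(value + 1) axis, with 1 point per library and a line at the mean of 3 libraries for muscle P1 (red) and bone marrow P1 (black). For each of the 16 genes the 3 bone marrow points lie above the 3 muscle points, and Phospho1 comes closest to 0 in muscle.

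Of 15 transcription factors that act in osteoblasts, 7 fell (46.7%), 1 rose (6.67%) and 7 did not pass. The shares over all genes were 9.76% lower and 13.5% higher, and the median of the list was -1.26. With all 9 groups 5 fell and none rose. Runx2, required for osteoblast formation, was 115, 182 and 129 in muscle and 3110.1, 3061 and 4454 in bone marrow (log2 fold change -4.64 ± 0.27 (SE), adjusted p = 1.19e-05). Sp7, osterix, which acts after Runx2, was 86.3, 137 and 99.8 in muscle and 4222, 5189.8 and 4059 in bone marrow (log2 fold change -5.39 ± 0.25 (SE), adjusted p = 4.83e-06). The homeobox gene Dlx3 was 26, 73.7 and 20.4 in muscle and 1867, 3679 and 2707 in bone marrow (log2 fold change -6.24, adjusted p = 5.44e-05). Each of these factors was detected in every muscle library, at values below every bone marrow library. Atf4, a stress factor that is widely used by cells, was 2136, 2289.6 and 1638 in muscle and 2730.2, 3327 and 3100.4 in bone marrow and stayed under the size threshold (log2 fold change -0.60, adjusted p = 0.0427). Its direction turned with equal totals (log2 fold change 0.072). Msx1, a homeobox gene of undifferentiated limb mesenchyme, was the member that rose, at 851, 966 and 856 in muscle and 302, 81.1 and 90 in bone marrow (log2 fold change 2.76, adjusted p = 0.00296), a call that was lost with all 9 groups (adjusted p = 0.357).

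Markers of osteocytes, the cells embedded in bone, were mostly lower. Of 14 listed genes 11 were tested, of which 7 fell (63.6%) and 2 rose (18.2%), against 9.76% and 13.5% of all genes. The median was -3.26, and with all 9 groups 4 fell. Dmp1, dentin matrix protein 1, was 251, 609 and 499 in muscle and 7109.9, 15475 and 7681 in bone marrow (log2 fold change -4.48 ± 0.40 (SE), adjusted p = 8.83e-05), and its call was lost with all 9 groups (adjusted p = 0.115). Phex, an endopeptidase that limits FGF23, was 204, 212 and 173 in muscle and 2636, 3358 and 3348 in bone marrow (log2 fold change -3.98, adjusted p = 9.23e-06). Sost, the gene of the late osteocyte product sclerostin, was among the 3 genes under the filter and was listed at 0 in all bone marrow libraries. Capg, an actin capping gene, and Pdpn, podoplanin, rose. Pdpn was 784, 957 and 561 in muscle and 77.2, 89.9 and 56.9 in bone marrow (log2 fold change 3.33, adjusted p = 0.000217), and it is known also in fibroblasts and lymphatic vessels.

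Genes that fold, modify and cross-link procollagen were lower in muscle P1 or did not pass, with few exceptions. Of 36 such genes 17 fell (47.2%), 2 rose (5.56%) and 17 did not pass, against 9.76% lower and 13.5% higher of all genes. The median was -1.45, and 29 of the 36 were lower without overlap, against 23.7% of all genes tested. With all 9 groups 11 fell, with equal totals 9 fell and 4 rose, and without bone marrow replicate 3, 17 fell and 4 rose. Serpinh1, the collagen chaperone HSP47, was 1658, 1828 and 1671 in muscle and 37695, 45542 and 26350.2 in bone marrow (log2 fold change -4.37 ± 0.22 (SE), adjusted p = 6.42e-06). Fkbp10, which acts with lysyl hydroxylase, was 1942, 2382 and 2591 in muscle and 21895, 27305 and 16991 in bone marrow (log2 fold change -3.24 ± 0.22 (SE), adjusted p = 2.45e-05). Lox, lysyl oxidase, was 4186, 3799 and 3787 in muscle and 17364, 46049 and 27238 in bone marrow (log2 fold change -2.83, adjusted p = 0.000312). P4hb, the β subunit of prolyl 4-hydroxylase, was 9053, 8685 and 10295 in muscle and 25405, 32109 and 21623 in bone marrow, just under the size threshold (log2 fold change -1.48, adjusted p = 0.000742). The groups did not overlap, and it was called without muscle replicate 3 or bone marrow replicate 3. Creb3l1, a factor that raises collagen secretion, was 479, 682 and 416 in muscle and 6713, 11047 and 10377 in bone marrow (log2 fold change -4.15, adjusted p = 1.89e-05). Pcolce2, an enhancer of procollagen processing, went the other way, at 6981, 5864 and 2837 in muscle and 523, 469 and 209.5 in bone marrow (log2 fold change 3.71 ± 0.43 (SE), adjusted p = 0.000359).

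Collagen genes were called in both directions. Of 30 collagen genes 12 were higher and 10 lower, with a median of 1.12. Those that fell included the type I, V and XI chains, and Col5a2 was 8612, 8316 and 8276 in muscle and 72756, 96902 and 61699.7 in bone marrow (log2 fold change -3.17, adjusted p = 2.19e-05) while Col11a2 was 1212, 2367 and 1443 in muscle and 118905, 127433 and 81322 in bone marrow (log2 fold change -6.06 ± 0.29 (SE), adjusted p = 5.61e-06). Col3a1, the fibrillar collagen of soft connective tissue, was 92309, 93542 and 104576 in muscle and 4892, 3397 and 8792 in bone marrow (log2 fold change 4.20 ± 0.32 (SE), adjusted p = 4.24e-05). Col14a1, a collagen on the surface of fibrils in tendon and skin, was 4107, 5195 and 4007 in muscle and 16.1, 10.3 and 6.65 in bone marrow (log2 fold change 8.59 ± 0.38 (SE), adjusted p = 4.33e-06). Col4a5, a basement membrane chain, was 656, 719.6 and 697 in muscle and 1.28, 1.33 and 0 in bone marrow (log2 fold change 8.63, adjusted p = 3.22e-05). The genes higher in muscle thus included basement membrane chains and fibril-associated types, and those lower included the fibrillar chains named above. The division was not complete: the fibrillar Col3a1 was in the higher group, and the fibril-associated Col22a1 was in the lower group. Col22a1 was named after its call was seen.

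Genes of the marrow stromal niche were lower or did not pass. Of 20 genes 10 fell, none rose and 10 did not pass, and the median was -1.63. Cxcl12, the chemokine that retains blood stem cells (chr6:117168535-117181367, plus strand), was 3778, 2918 and 4145 in muscle and 70149, 30282 and 71126 in bone marrow (log2 fold change -3.90 ± 0.34 (SE), adjusted p = 7.77e-05). Lepr, the leptin receptor, was 606, 555 and 561 in muscle and 3821, 2565 and 4567 in bone marrow (log2 fold change -2.63 ± 0.24 (SE), adjusted p = 0.000102). Adipoq, the adiponectin gene that marrow adipocyte progenitors also use, was 7.98, 57.7 and 6.68 in muscle and 4883, 1999.5 and 6088 in bone marrow (log2 fold change -7.94, adjusted p = 0.000155). Grem1, a BMP antagonist, was 2.54, 2.08 and 13.6 in muscle and 606, 147 and 608 in bone marrow (log2 fold change -6.13, adjusted p = 0.00093). For each of these genes the 3 bone marrow libraries were above the 3 muscle libraries, and bone marrow replicate 2 was the lowest of its group. Hp, haptoglobin, was 35.3, 26.3 and 107 in muscle and 11530.3, 3962 and 8229 in bone marrow (log2 fold change -7.25, adjusted p = 4.4e-05). Vcam1, an adhesion molecule of the niche, was 1516, 1663 and 1740.4 in muscle and 4664, 2233 and 4744 in bone marrow and stayed under the size threshold (log2 fold change -1.16, adjusted p = 0.0162). Vcam1 was called without bone marrow replicate 2. Of the general mesenchymal markers, Pdgfra was 4734, 3926 and 3576 in muscle and 3437, 3883 and 2839.7 in bone marrow and overlapped (log2 fold change 0.27, adjusted p = 0.324). Postn, periostin, was 4206, 4353 and 8575 in muscle and 1716, 2423 and 4024 in bone marrow and was not called (log2 fold change 1.08, adjusted p = 0.0541). It was called with equal totals (log2 fold change 1.75, adjusted p = 0.00962). Ctsk, cathepsin K, was 1749, 1964 and 2586 in muscle and 4228, 6101 and 3621 in bone marrow, without overlap but under the size threshold (log2 fold change -1.13, adjusted p = 0.008).

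Of 13 tested adipocyte lineage genes, 2 rose (15.4%) and 1 fell (7.69%), near the 13.5% and 9.76% of all genes. The count of 2 became 1 without muscle replicate 1, muscle replicate 2 or bone marrow replicate 1, and 6 with equal totals. The gene that fell was Adipoq. Cebpd, an early adipogenic factor, was 2008, 8627 and 7908 in muscle and 426, 501 and 862 in bone marrow (log2 fold change 3.18, adjusted p = 0.00246). Fabp4, a fatty acid carrier of adipocytes and endothelium, was 484, 1677 and 1913 in muscle and 14.6, 532 and 3.08 in bone marrow (log2 fold change 5.16, adjusted p = 0.0322) and overlapped between tissues, and its call was lost when any of 5 libraries was left out. Lpl, lipoprotein lipase, was 2477, 2591 and 3006 in muscle and 7763, 3512 and 9719.9 in bone marrow and stayed under the size threshold (log2 fold change -1.26, adjusted p = 0.023). Lpl was called without bone marrow replicate 2. Plin1, Cidec, Lep and Retn, genes of mature adipocytes, were under the filter.

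Genes of fibro-adipogenic progenitors and adventitial fibroblasts were higher in muscle P1. Of 30 genes 23 rose (76.7%), 1 fell (3.33%) and 6 did not pass, against 13.5% higher and 9.76% lower of all genes. The median was 6.24, and with all 9 groups 19 rose and none fell. Gsn, gelsolin, which severs actin filaments (chr2:35256380-35307892, plus strand), was 352683, 259965 and 203656 in muscle and 3824, 3509 and 4049 in bone marrow (log2 fold change 6.13 ± 0.23 (SE), adjusted p = 2.45e-06). Pi16, a marker of adventitial fibroblasts, was 36859, 33536 and 18827 in muscle and 7.21, 60.7 and 33.6 in bone marrow (log2 fold change 10.10 ± 0.66 (SE), adjusted p = 2.04e-05). Mfap5, a microfibril glycoprotein, was 25323, 21485 and 12906 in muscle and 11.9, 12.7 and 3.86 in bone marrow (log2 fold change 10.98 ± 0.45 (SE), adjusted p = 2.95e-06). Igfbp6, an IGF2-binding protein, was 22145, 20716 and 13638 in muscle and 5.04, 14.1 and 8.45 in bone marrow (log2 fold change 10.92 ± 0.38 (SE), adjusted p = 2.45e-06). Ly6a, which encodes Sca-1 (chr15:74994877-74998031, minus strand), was 17834, 17672 and 12025 in muscle and 27.6, 19.9 and 21.8 in bone marrow (log2 fold change 9.35 ± 0.26 (SE), adjusted p = 1.99e-06). The latter 4 genes were under 100 in every bone marrow library. Muscle replicate 3 was the lowest of its group for all 5. Nid1, a basement membrane linker, was 21799.7, 22069 and 14605 in muscle and 1353, 654 and 1241 in bone marrow (log2 fold change 4.21, adjusted p = 3.32e-05). Dcn and Lum, small proteoglycans of fibroblasts at large, were not called, and Dcn was 135690.0, 122781 and 111743 in muscle and 82702, 99236 and 74841 in bone marrow (log2 fold change 0.53, adjusted p = 0.108; under quantile normalization it was called) while Lum was 11347, 10655 and 13395 in muscle and 15985, 26588 and 17798 in bone marrow (log2 fold change -0.74, adjusted p = 0.0365). Mme, neprilysin, also known from marrow stroma, was the member that fell, at 258, 221 and 186 in muscle and 1578, 2018 and 2085 in bone marrow (log2 fold change -3.09, adjusted p = 4.34e-05), a call that was lost with all 9 groups (adjusted p = 0.427).

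Small leucine-rich proteoglycans bind collagen fibrils and set their width. Of 17 tested, 9 rose (52.9%), 2 fell (11.8%) and 6 did not pass, and the median was 3.45. The shares over all genes were 13.5% higher and 9.76% lower, so the share that fell was near that of all genes. Fmod, fibromodulin, was 84576, 43268 and 85692 in muscle and 482, 819 and 807 in bone marrow (log2 fold change 6.63 ± 0.32 (SE), adjusted p = 5.62e-06). Aspn, asporin, was 5518, 6475 and 6577 in muscle and 10.2, 12.4 and 78.6 in bone marrow (log2 fold change 8.08, adjusted p = 6.36e-05), Ogn, osteoglycin, was 16939, 14106 and 15229.6 in muscle and 1490.0, 459.7 and 1810.5 in bone marrow (log2 fold change 3.84, adjusted p = 0.000391), and Kera, keratocan, was 3580.2, 2437 and 4131 in muscle and 3.38, 0 and 0 in bone marrow (log2 fold change 10.98, adjusted p = 1.72e-05). Bgn, biglycan, which is abundant in bone, fell, at 11858, 12615 and 16562 in muscle and 46597, 54996 and 43050.3 in bone marrow (log2 fold change -1.83, adjusted p = 0.000305), but was not called with equal totals (log2 fold change -1.15).

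Of 18 genes of tendon and connective tissue 13 rose (72.2%) and 2 fell (11.1%), against 13.5% and 9.76% of all genes. The median was 6.19. Egr1, among the 13, is also on the early response list given below. In muscle Egr1 was 67702 to 78622, and the tendon list summed to 187800 to 268800. The study's methods state that tendon was removed before digestion, and transcripts of this list were measured in every muscle library. Cilp, cartilage intermediate layer protein, was 14577, 6459 and 17232 in muscle and 1.71, 15.9 and 3.44 in bone marrow (log2 fold change 10.96 ± 0.68 (SE), adjusted p = 1.72e-05). Thbs4, thrombospondin 4, was 35243, 20993 and 38961 in muscle and 1715, 5241 and 1571 in bone marrow (log2 fold change 3.67, adjusted p = 0.000498). Tnc, tenascin C, fell, at 3923, 2706 and 4721 in muscle and 21054, 15910.1 and 22533 in bone marrow (log2 fold change -2.41, adjusted p = 0.000179), as did Clec11a, osteolectin, at 1594, 1448 and 1947 in muscle and 5381, 5474 and 4374 in bone marrow (log2 fold change -1.61, adjusted p = 0.00038). The Clec11a call was lost with equal totals (log2 fold change -0.94).

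Cartilage genes moved in both directions. Of 21 tested genes 13 rose (61.9%), 3 fell (14.3%) and 5 did not pass, against 13.5% higher and 9.76% lower of all genes. The median was 3.82. The members that fell were Col2a1, Col11a1 and Col11a2, which form cartilage fibrils, and Col2a1 was 5054, 14155 and 1812 in muscle and 143665, 171864 and 89106 in bone marrow (log2 fold change -4.68 ± 0.64 (SE), adjusted p = 0.000839). Comp, the cartilage oligomeric matrix protein that tendon also makes, was 8459, 5847 and 7187 in muscle and 142, 129 and 121 in bone marrow (log2 fold change 5.75 ± 0.21 (SE), adjusted p = 2.45e-06), and Chad, chondroadherin, was 18049, 11802 and 16072 in muscle and 115, 402 and 51.1 in bone marrow (log2 fold change 6.81 ± 0.63 (SE), adjusted p = 0.000109). Prg4, lubricin, was 4009.9, 2359 and 2803 in muscle and 58.8, 0 and 33.3 in bone marrow (log2 fold change 7.88, adjusted p = 0.00231). So the 3 fibrillar collagen genes of the list were higher in bone marrow P1, whereas Comp, Chad and Prg4 were higher in muscle P1. The 13 that rose also included Sox9, Sox5, Acan, Col9a2, Matn3, Matn4, Lect1, Epyc, Mia and Chrdl2. These were named here after their calls were seen.

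**Figure D3:**
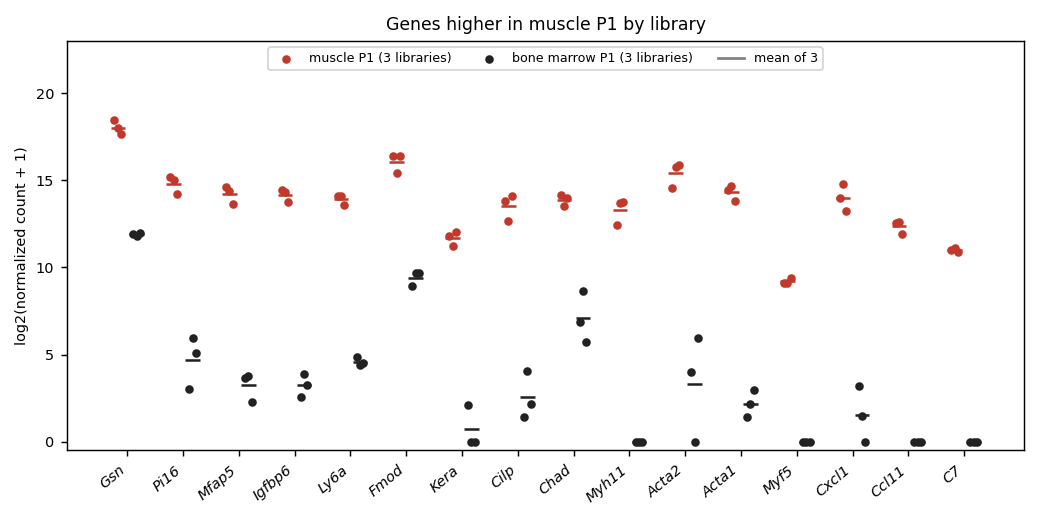
Normalized counts of 16 genes that were higher in muscle P1 on a log2(value + 1) axis, with 1 point per library and a line at the mean of 3 libraries (red muscle P1, black bone marrow P1). The groups do not overlap for any of the 16 genes, and Myh11, Myf5, Ccl11 and C7 sit at 0 in all 3 bone marrow libraries.

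Markers of muscle cells were present in the muscle P1 libraries. All 22 muscle fibre genes rose (median 6.52), as did 12 of 15 tested satellite cell genes (80.0%, median 7.34), against 13.5% of all genes. With all 9 groups, 20 fibre genes and 10 satellite cell genes rose. Of the 16 satellite cell genes listed, 7 were at 0 in all bone marrow libraries. Acta1, skeletal α-actin, was 22648, 26001 and 14187 in muscle and 1.69, 3.53 and 6.8 in bone marrow (log2 fold change 12.12 ± 0.44 (SE), adjusted p = 2.45e-06). Atp2a1, the calcium pump of fast fibres, was 2457, 12093 and 1712 in muscle and 3.77, 0 and 0 in bone marrow (log2 fold change 11.10, adjusted p = 5.85e-05), with muscle replicate 2 far above the other muscle libraries. Tnnt3, fast troponin T, was 2941, 6843 and 3639 in muscle and 0, 0 and 8.08 in bone marrow (log2 fold change 10.97, adjusted p = 5.43e-05), and Ckm, creatine kinase, was 2181, 2724 and 1236 in muscle and 0 in all 3 bone marrow libraries (adjusted p = 7.82e-06). Myf5, a myogenic determination factor that satellite cells use, was 551, 560.2 and 667 in muscle and 0 in all 3 bone marrow libraries (adjusted p = 1.98e-05). Calcr, the calcitonin receptor of quiescent satellite cells and osteoclasts, was 515, 341 and 297 in muscle and 0, 0 and 2.08 in bone marrow (log2 fold change 8.01 ± 0.72 (SE), adjusted p = 9.69e-05). Fgfr4, a receptor of the myogenic lineage, was 1448, 655 and 877 in muscle and 0 in all 3 bone marrow libraries (adjusted p = 1.72e-05). Of the defining satellite cell genes, Pax7, at 428, 242 and 228 in muscle and 0 in all 3 bone marrow libraries, and Myod1, at 483, 368 and 313 in muscle and 0 in all 3 bone marrow libraries, were also listed at 0 in all bone marrow libraries. Pax7, Myod1 and Ckm were named after their values were seen. Cdh15, M-cadherin, went against the list, at 1148, 544 and 703 in muscle and 1754, 2198 and 1099 in bone marrow, and was not called (log2 fold change -1.09, adjusted p = 0.0408). The satellite cell list summed to 18120 to 20490 in muscle and 2914 to 4620 in bone marrow, and the muscle fibre list to 47390 to 85730 and 702.2 to 1025. Their part in the differences of other genes was not tested.

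The Acta1 promoter is shown because Acta1 had the largest fold change of the muscle fibre list at a pseudocount of 1, and E-boxes are the motif that myogenic factors such as MYF5 bind. The 250 bases before the gene start in RefSeq (GRCm38.p6, chr8:123894776-123895025, minus strand) are printed with the E-box CANNTG in capitals.
Acta1: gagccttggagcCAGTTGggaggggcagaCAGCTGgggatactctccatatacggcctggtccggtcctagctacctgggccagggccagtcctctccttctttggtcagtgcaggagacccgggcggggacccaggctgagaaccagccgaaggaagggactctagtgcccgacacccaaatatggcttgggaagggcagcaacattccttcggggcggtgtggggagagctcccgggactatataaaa
The matches start at bases 13 and 30. Over the windows of 300 bases the E-box occurred in 15 of 17 muscle fibre genes with an entry (88.2%), in 7 of 10 satellite cell genes (70.0%) and in 75.0% of all 27025 genes.

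Markers of nerve, vessel and smooth muscle were higher in muscle P1 as well. Of 11 tested Schwann cell genes 10 rose (90.9%, median 4.87), of 12 endothelial genes 10 rose (83.3%, median 4.70), and of 11 mural genes 8 rose (72.7%, median 9.41). The share over all genes was 13.5%. With all 9 groups, 8 Schwann cell, 8 endothelial and 7 mural genes rose. Myh11, smooth muscle myosin (chr16:14194535-14291372, minus strand), was 5540.1, 13472 and 13604 in muscle and 0 in all 3 bone marrow libraries (adjusted p = 2.45e-06). Acta2, smooth muscle α-actin, was 24056, 54709 and 60522 in muscle and 15.2, 0 and 59.7 in bone marrow (log2 fold change 12.08 ± 1.25 (SE), adjusted p = 0.0002), and Tagln, transgelin, was 11887, 26462 and 31031 in muscle and 30.4, 8.81 and 25.5 in bone marrow (log2 fold change 10.05 ± 0.51 (SE), adjusted p = 6.42e-06). Muscle replicate 1 was the lowest of its group for these contractile genes. Pdgfrb and Cspg4, pericyte markers that stromal cells also use, overlapped between the tissues and were not called, although Pdgfrb was called with equal totals (log2 fold change 1.53). Tek, the angiopoietin receptor, was 4074, 9662 and 1997 in muscle and 0, 0 and 4.51 in bone marrow (log2 fold change 11.24 ± 0.84 (SE), adjusted p = 3.99e-05), and Pecam1 was 496, 1042 and 941 in muscle and 136, 75.7 and 74.3 in bone marrow (log2 fold change 3.09, adjusted p = 0.000678). Pmp22, a myelin gene that fibroblasts also use, was 10855, 9546 and 9335 in muscle and 1619, 1012 and 1310.1 in bone marrow (log2 fold change 2.94, adjusted p = 3e-05). The mural list summed to 56480 to 123400 in muscle and 4780 to 5280 in bone marrow, the endothelial list to 7199 to 17300 and 403.2 to 650.8, and the Schwann cell list to 13150 to 14270 and 1470 to 2172. Their part in the other differences was not tested.

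Blood cell markers went the opposite way. Of 21 tested leukocyte genes 16 fell (76.2%, median -4.38), of 14 erythroid genes 12 fell (85.7%, median -5.43) and of 9 megakaryocyte genes 7 fell (77.8%, median -4.48), and none rose. The share over all genes was 9.76% lower. With all 9 groups, 13 leukocyte, 12 erythroid and 4 megakaryocyte genes fell. Ngp, a neutrophil granule protein, was 0, 0 and 61 in muscle and 5637, 13395 and 22328 in bone marrow (log2 fold change -11.55 ± 1.45 (SE), adjusted p = 0.000534), and S100a8, a subunit of calprotectin, was 41.7, 0 and 195 in muscle and 5139.6, 8912 and 17709.5 in bone marrow (log2 fold change -8.84, adjusted p = 0.00354). Ltf, lactoferrin, was 0, 0 and 31.8 in muscle and 3327, 5860.1 and 4917 in bone marrow (log2 fold change -10.48, adjusted p = 0.000374). Muscle replicate 3 held most of the few neutrophil counts of the muscle group. Hba-a2 and Hba-a1 encode near-identical α-globin chains, and Hba-a2 was 4947, 3356 and 1030.4 in muscle and 47465, 39958 and 175122 in bone marrow (log2 fold change -4.75, adjusted p = 0.00103). Slc4a1, the red cell anion exchanger, was 21.1, 35 and 22.2 in muscle and 1095, 2054 and 5085 in bone marrow (log2 fold change -6.42, adjusted p = 7.29e-05). Ppbp, a platelet chemokine, was 0, 8.47 and 0 in muscle and 523, 598 and 4728 in bone marrow (log2 fold change -9.07, adjusted p = 0.000541), and bone marrow replicate 3 was the highest of its group for the globins, Slc4a1 and Ppbp. The leukocyte list summed to 583.6 to 1048 in muscle and 25530 to 79950 in bone marrow, the erythroid list to 2944 to 12220 and 121400 to 498800, and the megakaryocyte list to 154.2 to 261.5 and 1555 to 8892. The 2 macrophage markers of the list overlapped between the tissues. The lymphocyte genes Cd79a and Cd3e were under the filter. The part of these cells in the other differences was not tested.

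Of 8 tested osteoclast genes 3 rose (37.5%) and 2 fell (25.0%), against 13.5% and 9.76% of all genes. The 3 that rose were Calcr, which is also on the satellite cell list above, Nfatc1 and Tnfrsf11a. Tnfrsf11a was named after its call was seen. Without muscle replicate 2, 1 rose and 1 fell. Acp5, tartrate-resistant acid phosphatase, was 23.6, 59.2 and 86.8 in muscle and 211, 284 and 426 in bone marrow (log2 fold change -2.54, adjusted p = 0.0094), and the call was lost with all 9 groups (adjusted p = 0.542), as was that of each osteoclast gene except Calcr.

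**Figure D4:**
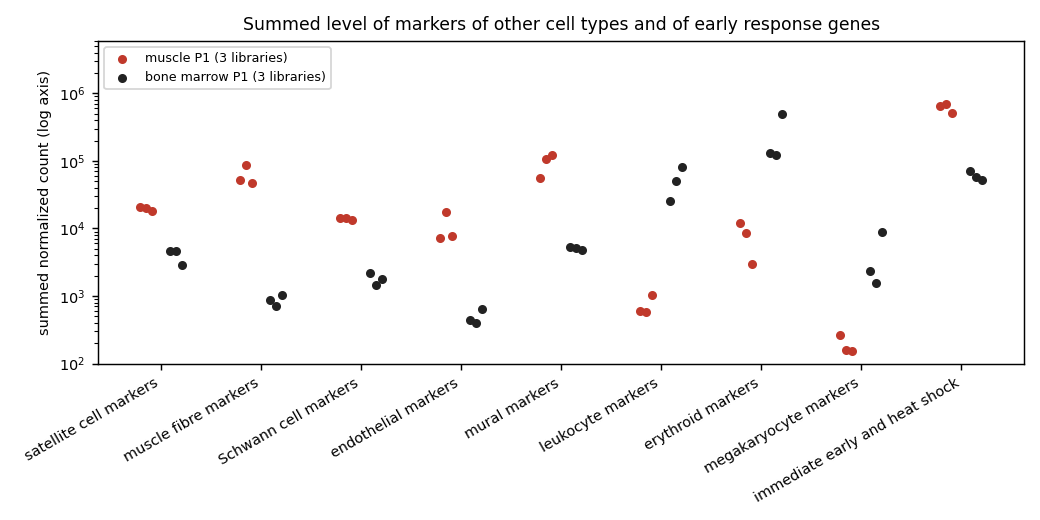
Summed normalized counts of each marker list in each library on a log axis, red for muscle P1 and black for bone marrow P1. Muscle, nerve and vessel lists and the early response list were higher in the 3 muscle libraries, and the 3 blood lists were higher in the 3 bone marrow libraries, with the erythroid sum of bone marrow replicate 3 at 498800.

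Chemokine and cytokine genes differed in which ligands were present. Of 28 tested genes 13 rose (46.4%), 3 fell (10.7%) and 12 did not pass, against 13.5% higher and 9.76% lower of all genes. The median was 1.82, and 7 of the 30 listed were at 0 in all bone marrow libraries. Ccl11, eotaxin, which attracts eosinophils (chr11:82057823-82062955, plus strand), was 5907, 6132 and 3919.7 in muscle and 0 in all 3 bone marrow libraries (adjusted p = 2.45e-06). Cxcl1, a neutrophil attractant, was 15995, 27689 and 9525 in muscle and 8.35, 1.75 and 0 in bone marrow (log2 fold change 12.42 ± 0.77 (SE), adjusted p = 1.72e-05). Ccl2, a monocyte attractant, was 7227, 20228 and 2863 in muscle and 5.17, 0 and 0 in bone marrow (log2 fold change 11.99 ± 0.91 (SE), adjusted p = 4.15e-05), and its neighbour in function Ccl7 was 5042, 12067 and 2873 in muscle and 3.32, 0 and 3.34 in bone marrow (log2 fold change 11.04, adjusted p = 2.43e-05). Muscle replicate 2 was the highest of its group for Cxcl1, Ccl2 and Ccl7. The genes that fell were Cxcl12, described above, Il7, a lymphocyte growth factor, and Tnfsf11, the osteoclast factor RANKL. Il7 was 12.2, 51.9 and 18.8 in muscle and 451, 285 and 809 in bone marrow (log2 fold change -4.29, adjusted p = 0.00132), and its call was lost with all 9 groups (adjusted p = 0.132). Tnfsf11 was 34.2, 44.5 and 0 in muscle and 586, 354 and 889 in bone marrow (log2 fold change -5.61 ± 1.33 (SE), adjusted p = 0.0122), and it was not called with a pseudocount of 0.1.

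Complement genes rose in 7 of 20 tested cases (35.0%) and fell in 5 (25.0%), with a median of 1.23. The shares over all genes were 13.5% and 9.76%. C3, the central component, was 25886, 22366 and 17286 in muscle and 211, 491 and 669.7 in bone marrow (log2 fold change 5.71 ± 0.39 (SE), adjusted p = 2.57e-05), and C1s1, a protease of the classical pathway, was 8736, 8307 and 7862 in muscle and 799, 388 and 629.5 in bone marrow (log2 fold change 3.84, adjusted p = 2.63e-05). C7, a component of the membrane attack complex, was 2026, 2214 and 1883 in muscle and 0 in all 3 bone marrow libraries (adjusted p = 5.62e-06). The early components C3 and C1s1 and the late component C7 were thus higher in muscle P1.

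Signalling genes of the BMP pathway were divided. Of 38 tested genes 12 rose (31.6%) and 7 fell (18.4%), against 13.5% and 9.76% of all genes, with a median of 0.50. With all 9 groups 5 rose and 2 fell, and with equal totals 15 rose and 4 fell. Among antagonists, Grem1 fell as given above and Chrdl2, chordin-like 2, was 192, 179 and 424 in muscle and 0 in all 3 bone marrow libraries (adjusted p = 8.18e-05). Among receptors, Bmpr1b was 137, 36.1 and 83.9 in muscle and 0 in all 3 bone marrow libraries (adjusted p = 0.000509). Bambi, a decoy receptor, was 755, 886 and 881 in muscle and 8686, 10133 and 7301 in bone marrow (log2 fold change -3.36 ± 0.19 (SE), adjusted p = 1.01e-05), a call that was lost with all 9 groups (adjusted p = 0.0985). Id3, a transcriptional target of the pathway, was 24989, 28223 and 19675 in muscle and 12570.5, 13168 and 9122 in bone marrow and was under the size threshold (log2 fold change 1.07, adjusted p = 0.00638). Id3 was called with equal totals (log2 fold change 1.74).

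Of 38 tested Wnt pathway genes 12 were higher and 12 lower (31.6% each, median 0.17), against 13.5% and 9.76% of all genes. The split moved with the setting, to 8 higher and 5 lower with all 9 groups, 14 higher and 9 lower with equal totals, and 8 higher and 12 lower without muscle replicate 2 or 3. Among secreted inhibitors, Sfrp5 was 1123, 1005 and 1726 in muscle and 0 in all 3 bone marrow libraries (adjusted p = 1.01e-05) and Dkk2 was 639, 588 and 656 in muscle and 1.7, 0 and 5.14 in bone marrow (log2 fold change 7.95 ± 0.75 (SE), adjusted p = 0.000122). Tcf7, a nuclear factor of the pathway, was 6.39, 46.1 and 14.7 in muscle and 578, 590.3 and 727 in bone marrow (log2 fold change -5.16, adjusted p = 0.000634), a call that was lost with all 9 groups (adjusted p = 0.0824), and Rspo2, a secreted enhancer, was 0, 3.12 and 0 in muscle and 141, 58.4 and 46.2 in bone marrow (log2 fold change -5.52, adjusted p = 0.00177). Wif1, a Wnt-binding inhibitor, was 2567, 1777 and 2302 in muscle and 2598, 2531 and 3172 in bone marrow and overlapped (log2 fold change -0.33, adjusted p = 0.25). The direction of Wif1 turned with equal totals (log2 fold change 0.35). Secreted inhibitors and enhancers were each called in both directions. Of the inhibitors, Sfrp2 and Sostdc1 also rose, whereas Dkk1, Frzb and Notum fell. Of the enhancers, Rspo1 rose and Rspo3 fell. Sostdc1, Dkk1, Frzb, Notum, Rspo1 and Rspo3 were named after their calls were seen.

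Of 14 tested genes of the IGF axis 3 rose (21.4%) and 2 fell (14.3%), against 13.5% and 9.76% of all genes. With equal totals 5 rose and 2 fell. Igfbp6 has been given above. Igf1 was 3674, 2584 and 2918 in muscle and 732, 359.5 and 1007 in bone marrow (log2 fold change 2.23 ± 0.36 (SE), adjusted p = 0.00191), and the call was lost with all 9 groups (adjusted p = 0.0855). Pappa, a protease that cleaves IGF-binding proteins, was 56.7, 31.7 and 8.51 in muscle and 1351, 394 and 1846 in bone marrow (log2 fold change -5.25 ± 0.78 (SE), adjusted p = 0.00128). Igfbp4, a substrate of that protease, was 14894, 17178 and 15779.9 in muscle and 13305, 7126 and 17366 in bone marrow and overlapped (log2 fold change 0.43, adjusted p = 0.32).

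Of 21 tested receptors for bone-acting hormones 6 were higher and 6 lower (28.6% each), against 13.5% and 9.76% of all genes. The counts were 4 higher and 3 lower with all 9 groups, and 7 higher and 4 lower with equal totals. Pth1r, the parathyroid hormone receptor, was 0, 469 and 489 in muscle and 7934, 18457 and 14355 in bone marrow (log2 fold change -7.71 ± 2.07 (SE), adjusted p = 0.0209). The value of 0 in muscle replicate 1 stood apart from the other muscle libraries, and the call was lost without bone marrow replicate 2 or 3 and with a pseudocount of 0.1. Vdr, the vitamin D receptor, was 113, 154 and 153 in muscle and 4165, 4237 and 2727 in bone marrow (log2 fold change -4.70 ± 0.26 (SE), adjusted p = 1e-05), a call that was lost with all 9 groups (adjusted p = 0.0608). Calcrl, a receptor for adrenomedullin and CGRP, was 523, 2694 and 901 in muscle and 20.5, 9.97 and 17.1 in bone marrow (log2 fold change 6.06 ± 0.63 (SE), adjusted p = 0.000208).

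Of 30 tested metalloproteinase and inhibitor genes 10 rose (33.3%) and 8 fell (26.7%), against 13.5% and 9.76% of all genes. With all 9 groups 5 rose and 5 fell, and with equal totals 13 rose and 5 fell. Mmp13, a collagenase of bone, was 1174, 1360.3 and 1261 in muscle and 11214, 11426 and 13600.2 in bone marrow (log2 fold change -3.25 ± 0.17 (SE), adjusted p = 6.86e-06), and the call was lost with all 9 groups (adjusted p = 0.0825). Mmp16, a membrane-type enzyme, was 15.7, 37.8 and 113 in muscle and 2485, 4448 and 2521 in bone marrow (log2 fold change -6.17, adjusted p = 0.000188). Timp3, a matrix-bound inhibitor, was 19565, 20104 and 17094 in muscle and 446, 293 and 622 in bone marrow (log2 fold change 5.44 ± 0.27 (SE), adjusted p = 6.07e-06), and Adam33 was 2219.7, 1778 and 1351 in muscle and 4.02, 0 and 40.3 in bone marrow (log2 fold change 8.21, adjusted p = 0.00096). Mmp2, a gelatinase, was 20542, 20301 and 20928 in muscle and 31353, 50508 and 28118 in bone marrow, under the size threshold (log2 fold change -0.78, adjusted p = 0.0375).

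Of 36 listed patterning genes of the limb 28 were tested, of which 4 rose (14.3%) and 2 fell (7.14%), near the 13.5% and 9.76% of all genes. With all 9 groups 1 rose and 0 fell, and the count of 4 became 1 without muscle replicate 2 and 2 without muscle replicate 1 or 3. Tbx4, the hindlimb T-box gene, was 64.2, 179.6 and 141 in muscle and 6.88, 0 and 19.1 in bone marrow (log2 fold change 4.46, adjusted p = 0.0148), and its call was lost without muscle replicate 2 or 3 and with a pseudocount of 0.1. Hoxa10 was 361, 437 and 480.0 in muscle and 421, 554 and 454 in bone marrow and overlapped (log2 fold change -0.16, adjusted p = 0.666). The direction of Hoxa10 turned with equal totals (log2 fold change 0.52). Shox2, which shapes the proximal limb, was 98.3, 194 and 212 in muscle and 744, 950.4 and 1330.5 in bone marrow (log2 fold change -2.62, adjusted p = 0.00104), a call that was lost with all 9 groups (adjusted p = 0.0562).

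Of 28 cell cycle genes 7 fell (25.0%), 1 rose (3.57%) and 20 did not pass, with a median of -1.23. The shares over all genes were 9.76% lower and 13.5% higher. The 7 that fell act in or near mitosis, among them Birc5, survivin, at 34.3, 37.7 and 16.7 in muscle and 245, 402 and 550.2 in bone marrow (log2 fold change -3.71 ± 0.52 (SE), adjusted p = 0.000978), and Ube2c, a conjugating enzyme of the anaphase complex, at 54.8, 48.3 and 134 in muscle and 366, 437 and 843 in bone marrow (log2 fold change -2.84 ± 0.51 (SE), adjusted p = 0.00329). Mcm4, a subunit of the replicative helicase, rose, at 396, 356 and 409 in muscle and 134, 99.1 and 127 in bone marrow (log2 fold change 1.69, adjusted p = 0.00393), a call that was lost with all 9 groups (adjusted p = 0.0652). Pcna, the DNA polymerase clamp, was 1037, 769 and 719 in muscle and 331, 565 and 620.4 in bone marrow, higher in each muscle library than in each bone marrow library but not called (log2 fold change 0.77, adjusted p = 0.0836). The count of 7 became 2 without bone marrow replicate 3, the library with the highest globin share, and 2 with equal totals. Of 15 tested CDK inhibitor, D-type cyclin and antiproliferative genes 2 rose (13.3%), near the 13.5% of all genes. The count became 6 with equal totals, and 1 with all 9 groups or without muscle replicate 2 or 3 or bone marrow replicate 1 or 2. Btg2, an antiproliferative gene that is also induced early after stimulation, was 28212, 25544 and 22372 in muscle and 1045, 1091 and 1214 in bone marrow (log2 fold change 4.50 ± 0.17 (SE), adjusted p = 2.45e-06). Cdkn1a, which encodes p21, was 3462, 3708 and 2571 in muscle and 7734, 7032 and 6263 in bone marrow and lay under the size threshold (log2 fold change -1.12, adjusted p = 0.00282). Ccnd3, cyclin D3, was 2547, 2794 and 2270.0 in muscle and 2206, 2347 and 2377 in bone marrow and overlapped (log2 fold change 0.13, adjusted p = 0.59).

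Immediate early and heat shock genes, which are induced within minutes to hours by stimulation and by cell dissociation, were higher in muscle P1. Of 27 tested genes 24 rose (88.9%), none fell and 3 did not pass, against 13.5% higher and 9.76% lower of all genes. The median was 3.83, and with all 9 groups 21 rose. Hspa1b and Hspa1a, near-identical copies of inducible HSP70, were both higher, and Hspa1a was 72245, 86883 and 53528 in muscle and 823, 299 and 426 in bone marrow (log2 fold change 7.20 ± 0.36 (SE), adjusted p = 6.17e-06). Fos, a subunit of AP-1, was 74120.5, 57792 and 69771 in muscle and 17087, 13339.6 and 9546 in bone marrow (log2 fold change 2.37 ± 0.25 (SE), adjusted p = 0.000205). Egr1, an early zinc finger factor, was 78622, 77541 and 67702 in muscle and 3763, 4149.9 and 3362 in bone marrow (log2 fold change 4.31 ± 0.17 (SE), adjusted p = 2.61e-06). Hspa8, the constitutive HSP70, was 51042, 64516 and 42020.0 in muscle and 7659, 8278 and 8013 in bone marrow (log2 fold change 2.70, adjusted p = 3.99e-05). The list summed to 517300 to 692800 in muscle and 52090 to 69670 in bone marrow. Muscle was digested and bone marrow was not, and the part of digestion in these values was not tested. The 4 Y-linked genes tested were detected in all 6 libraries and none was called.

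The tissue difference in P1 was set beside that in P3, the Prx1+ CD45- CD105+ population with variable CD200, in a fit to 12 libraries with a term for the difference of the differences. This difference passed at an adjusted p below 0.05 and a size above 1.5 for 2556 of 13883 genes (18.4%), of which 1133 were more positive (8.16%) and 1423 more negative (10.2%) in P1. The bone matrix list had medians of -4.11 in P1 and -0.039 in P3, and 18 of its 25 genes were more negative in P1 and 1 more positive. Bglap was 921, 777 and 452 in muscle P3 and 365, 3256 and 11632 in bone marrow P3, and its tissue difference was -6.31 in P1 and -1.80 in P3 (difference -4.50 ± 1.28 (SE), adjusted p = 0.0257). Sp7 was 30.6, 59 and 58.9 in muscle P3 and 215, 127 and 146 in bone marrow P3, with -5.39 in P1 and -1.72 in P3 (difference -3.67 ± 0.50 (SE), adjusted p = 0.000488). Of the collagen machinery genes, 27 of 36 were more negative in P1, with medians of -1.45 in P1 and 1.38 in P3. Of the cell cycle genes 25 of 28 were more positive in P1, with medians of -1.23 in P1 and -5.40 in P3, that is, muscle lay further below bone marrow in P3 than in P1. Birc5 was 131, 99.9 and 149.8 in muscle P3 and 3803, 6564 and 7247 in bone marrow P3 (difference 1.77 ± 0.58 (SE), adjusted p = 0.0458). The fibro-adipogenic list had medians of 6.24 and 6.02, with 6 genes more positive and 8 more negative of 30. Ly6a was among the 6, at 25405, 20247 and 23387 in muscle P3 and 854, 372 and 365 in bone marrow P3 (difference 3.80 ± 0.44 (SE), adjusted p = 0.000193). The early response list had medians of 3.83 and 3.79, and 3 of its 27 genes differed.

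**Figure D5:**
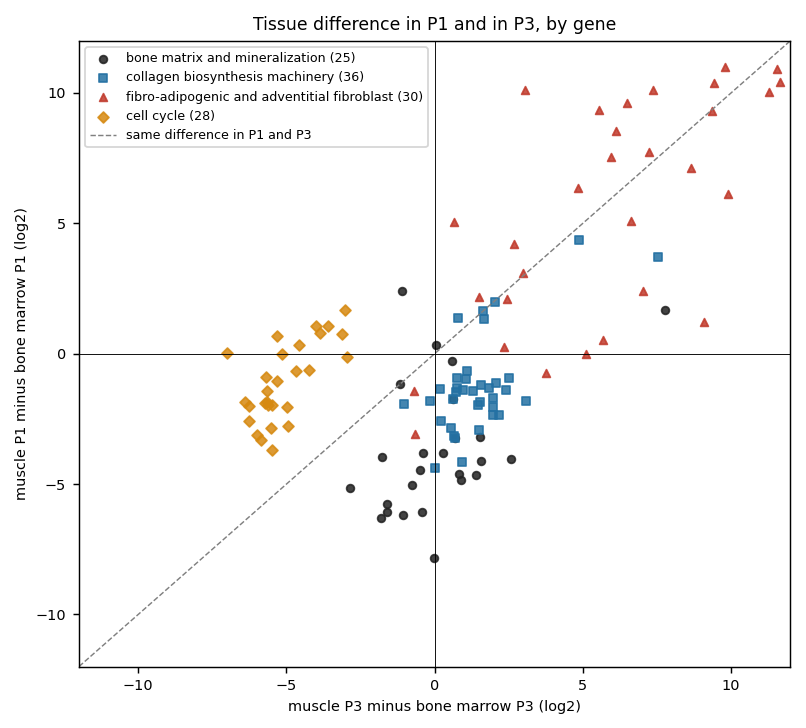
Muscle minus bone marrow difference on the log2 scale in P3 (horizontal axis) and P1 (vertical axis), with 1 point per gene for 4 lists and a dashed line where both differences are equal. Most bone matrix and collagen machinery genes lie below the line, the cell cycle genes above it, and fibro-adipogenic genes on both sides.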

How the data were processed

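RNA was measured in sorted cells, with 3 libraries of muscle P1 and 3 of bone marrow P1. The authors trimmed reads with Trim Galore, aligned them with STAR and handled counts with DESeq2, and the table is a signal of normalized counts as deposited. The genome build, annotation and counting tool are not given in the sources used here. Steps between low values differed from gene to gene, so whole reads were not recovered, and no counting error is given. The table lists 30154 entries. Of these, 3 have no symbol, 185 share a symbol and 27 carry symbols turned into dates. Entries with at least 10 in at least 3 of the 6 libraries were kept (13883), which removed 16271, of which 8367 were at 0 in all 6.

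Genes were tested with limma 3.58.1 in R 4.3.3 (lmFit, eBayes with trend) on log2(value + 1), a pseudocount of 1, with Benjamini-Hochberg adjustment. A fold change on this scale understates the change of low genes. No fold change is given for genes listed at 0 in a whole group. The comparison of P1 with P3 was added to the plan. Gene lists were written by hand, and the members, lists and tests were chosen with earlier results of these data known. The named genes were the 10 largest DEGs in each direction without overlap and with a mean of at least 500, the sort genes and the mesenchymal markers of the study, and of each list genes among the 5 with the highest mean or the 2 with the largest change in each direction. Lists share 46 of their 662 genes. Members under the filter are named as such. Some members of the lists are counted with their list but not reported here by name. Alternatives were other pseudocounts and filters, equal totals, quantile normalization, median centring, all 9 groups, eBayes without trend, a replicate block and each library left out. The fit was tested on simulated data: of 100 genes changed by 2 on the log2 scale 38 were recovered, of 100 changed by 3 58 were recovered, none with the wrong sign, and 3 other genes were called. Far fewer genes were changed in the simulation than the 3224 DEGs of the data. The adjusted p depends on that number, so these shares do not measure recovery in the comparison itself. Identifiers were matched to GENCODE M21 (13792 of 13883) and promoters to RefSeq by symbol. Figures used Python 3.11.15 with pandas 2.3.3, numpy 2.4.6 and matplotlib 3.10.9.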

Additional observations from a re-analysis of the deposited data

Results flagged for a closer look

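The tissue difference was not the same in P1 and P3. The difference of the muscle minus bone marrow differences passed for 2556 genes, and among the sort genes and mesenchymal markers it passed for 13 entries, given here as P1 minus P3 on the log2 scale from the 12-library limma fit. Markers that were lower in muscle relative to bone marrow in P1 than in P3 were Cd200 (-5.35, adjusted p = 9.47e-05), Prrx1 (-2.37, adjusted p = 0.0296), Ctsk (-3.80, adjusted p = 0.000784), Alpl (-6.62, adjusted p = 7.07e-06), Pdgfra (-2.07, adjusted p = 0.0105), Spp1 (-4.28, adjusted p = 0.0144), Ibsp (-2.27, adjusted p = 0.0103), Sp7 (-3.67, adjusted p = 0.000488), Cxcl12 (-2.07, adjusted p = 0.0362), Bglap (-4.50, adjusted p = 0.0257) and the entry TRANSGENES (-1.89, adjusted p = 0.0344). Calcr (7.05, adjusted p = 0.000927) and Ly6a (3.80, adjusted p = 0.000193) were higher in muscle relative to bone marrow in P1 than in P3. Cd200 was part of the gate, since P1 was sorted as CD200+ and P3 had variable CD200. In the other libraries of that fit, Cd200 was 8339.8, 6525 and 6947 in muscle P3 and 905, 473 and 451 in bone marrow P3, and Calcr was 9.29, 5.66 and 3.83 in muscle P3 and 8.67, 1.16 and 1.14 in bone marrow P3.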

How the results depend on the processing

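Alternatives were run for the counts of DEGs and for 147 genes named in the text, 123 of them DEGs. The counts stayed within 1.5 times the main values under pseudocounts of 0.1 and 5, no filter, a mean of at least 50, quantile normalization, centring on the median and eBayes without trend, and with each library left out in turn they ran from 2771 to 3026 DEGs, 1556 to 1785 higher and 1118 to 1333 lower. With equal totals 2947 genes were higher and 792 lower, against 1869 and 1355. With all 9 groups 1546 genes were called, 986 higher and 560 lower, and 14 of the named calls were lost. The spread then includes groups other than those compared, and the cause of the lower count was not tested. Of the named DEGs, 102 kept their call under every one of the 16 alternatives that gave them a value. With equal totals 4 uncalled named genes were called, Eng (3.38), Id3 (1.74), Pdgfrb (1.53) and Postn (1.75). Direction turned, all among genes that were not called, with equal totals for Prrx1 (0.051), Atf4 (0.072), Hoxa10 (0.52) and Wif1 (0.35). Fits with the replicate number as a replicate block gave 3210 DEGs, 1861 higher and 1349 lower. Residuals of same-numbered libraries had r of 0.0612, -0.0144 and 0.0166 across genes, so the numbers were not used as pairs. The number of reads behind a value is unknown, which limits statements on values near 0.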
